A study of Saccharomyces cerevisiae with 112 samples.

Results

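Eisosomes are protein assemblies under furrow-shaped folds of the plasma membrane of budding yeast, and 8 genes that encode their coat and the membrane proteins of the compartment are described here, of 5560 features listed in the deposited tables. They were chosen by name: SUR7 (YML052W), YNL194C, FMP45 (YDL222C) and PUN1 (YLR414C) of the Sur7 family, PIL1 (YGR086C) and LSP1 (YPL004C) of the coat, and NCE102 (YPR149W) and FHN1 (YGR131W) of the Nce102 family. All 8 names were found, each as a single feature, and all passed the filter on low counts in every abundance comparison.

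Pil1 and Lsp1 are BAR domain proteins that assemble into the curved coat on the inner face of the membrane, and loss of Pil1 disperses the compartment. Sur7 and its relatives are tetraspan proteins that lie in the same membrane patches, and Fmp45 and the product of YNL194C are its paralogs, known for roles in sporulation and in the sphingolipid content of the membrane. Nce102 is a tetraspan protein that responds to sphingolipids and stabilises the furrows, and Fhn1 is its paralog. The furrows also hold nutrient permeases and take part in signalling to the kinase complex TORC2.

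The series asks how acute glucose withdrawal changes transcription, decay and translation of mRNA in Saccharomyces cerevisiae. Cells were labelled with 4-thiouracil (4TU), a uracil analog that enters new RNA and, after alkylation with iodoacetamide, is read as T-to-C conversions (SLAM-seq), so that a read with conversions is called labelled below. Of its 112 samples, 40 were analysed here and 72 were not analysed here.
The chase set held 28 libraries of the strain KWY165, with 2 courses with glucose and 2 without, each at 0, 5, 10, 15, 20, 30 and 45 min after the label was chased. The 4TU set held 8 libraries of another strain, KWY11376, as total RNA or polysomes (mRNA bound by several ribosomes), from cells with glucose and 30 min of 4TU or from cells 30 min without glucose, whose titles add that they are post-labeling. Each of these 4 groups had 2 libraries. The last set held 4 libraries of KWY165 without 4TU, 1 each of total RNA and polysomes with and 30 min without glucose. The labels give no genotype for either strain, no carbon source in place of glucose, and no statement that replicates came from separate cultures, so p-values measure the spread between these samples only, which may be technical.

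Libraries of the chase held 2710630 to 10591665 reads, those of the 4TU set 14965187 to 31069123 and those without 4TU 15482446 to 29223067. Labelled reads made up 18.3% to 63.3% of a chase library, 1.57% to 50.8% of a 4TU library and 0.0351% to 0.0502% of a library without 4TU. Levels are given as normalised CPM, reads as a share of the library scaled with TMM factors within each set, and are therefore relative to the other mRNAs of the library. They are compared within a gene and not between genes, because each feature is a window at the 3' end of a gene. Reads came from whole cultures, in which less RNA per cell and fewer cells with the RNA cannot be told apart.

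The windows of the 4 Sur7 family genes measured 555 bases for SUR7 (chromosome XIII, 171061 to 171615, plus strand), 673 for YNL194C (chromosome XIV, 272288 to 272960, minus strand), 869 for FMP45 (chromosome IV, 60254 to 61122, minus strand) and 599 for PUN1 (chromosome XII, 953005 to 953603, minus strand). PIL1 had a window of 794 bases (chromosome VII, 649055 to 649848, minus strand) and LSP1 one of 777 (chromosome XVI, 550106 to 550882, minus strand). The windows of NCE102 (chromosome XVI, 830190 to 831023, plus strand) and FHN1 (chromosome VII, 755001 to 755569, plus strand) measured 834 and 569 bases. These coordinates are those of the files, for which no build was found in the labels or headers. Members of a family had like coding lengths in the RefSeq table of assembly R64: 909, 906, 930 and 792 bases for SUR7, YNL194C, FMP45 and PUN1, 1020 for PIL1 and 1026 for LSP1, and 522 for NCE102 and 525 for FHN1. Over all 40 libraries, multimapped reads made up between 0.0621% (PUN1) and 0.334% (FHN1) of a gene's reads. In single libraries the share reached 4.317% for FMP45, 1.554% for FHN1 and 1.515% for YNL194C, the highest of the 8 genes. Few reads could thus be split between the paralogs.
The windows of 4 of the 8 genes overlapped that of a gene on the other strand: PUN1 with INA1 over 544 bases, LSP1 with AEP3 over 515, NCE102 with SUE1 over 504 and FHN1 with PHB1 over 491. Neither labels nor headers say whether reads were counted by strand, and the values of these neighbours stand beside the results they touch.

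Glucose withdrawal split the Sur7 family in the chase. YNL194C, FMP45 and PUN1 rose without glucose while SUR7 fell, and of the other genes LSP1, NCE102 and PIL1 rose and FHN1 did not differ at the end of the course. At 45 min 6 of the 8 genes were higher without than with glucose and 1, SUR7, was lower, with edgeR's quasi-likelihood test and a Benjamini-Hochberg adjusted p under 0.05. Among all 5525 genes tested at 45 min, 40% were higher and 36.9% lower. The median log2 change was 1.78 over the 8 genes and 0.05 over all genes.

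**Figure D1:**
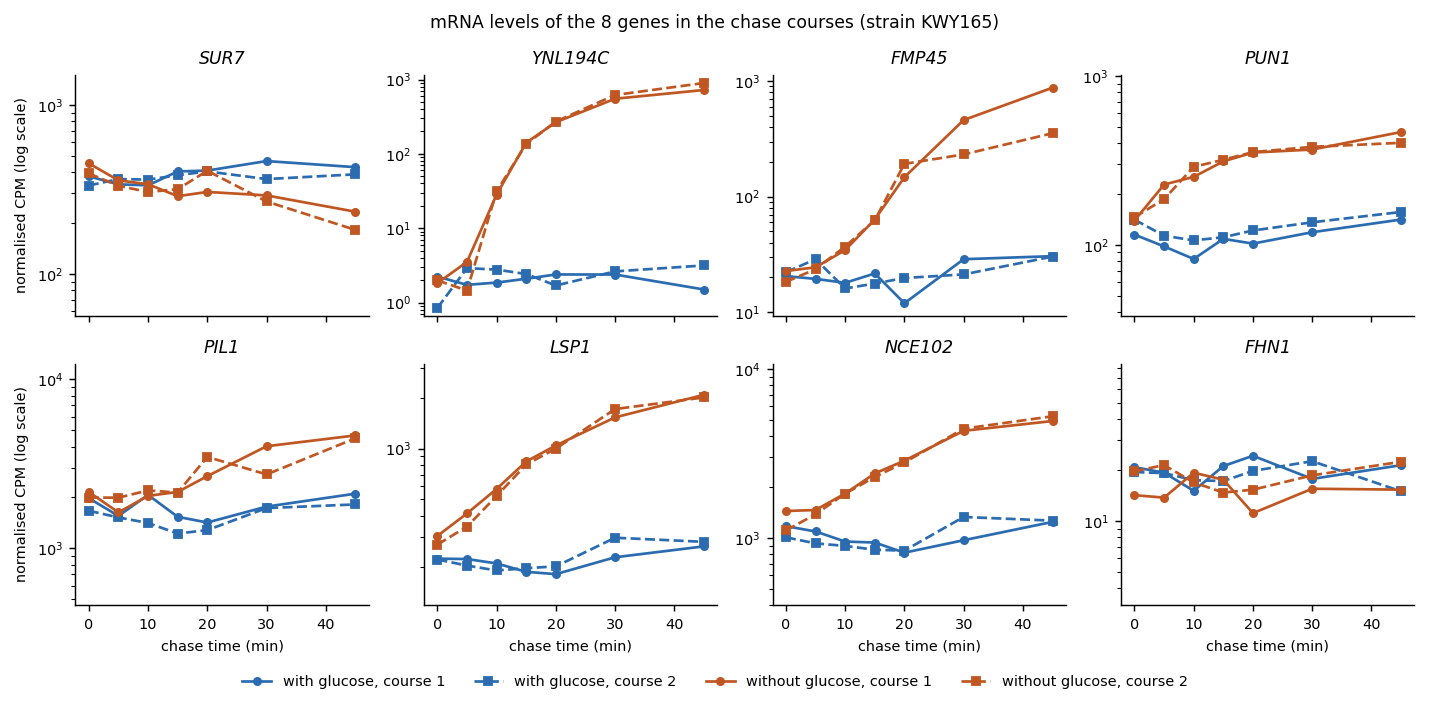
Normalised CPM (log axis) of the 8 genes against chase time in min, with 1 line for each of the 2 courses with glucose (blue) and the 2 without (orange). The lines of YNL194C, FMP45, PUN1, LSP1 and NCE102 part during the course, those of SUR7 part downward, and those of FHN1 cross; at 45 min YNL194C reads 723 and 898 normalised CPM without glucose and 1.5 and 3.16 with it.

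YNL194C, an integral membrane protein of the Sur7 family, was nearly silent with glucose and rose most. Its 14 libraries with glucose lay between 0.847 and 3.16 normalised CPM, from 5 to 27 reads each. Without glucose the 2 courses read 1.83 and 1.99 at 0 min, 3.52 and 1.45 at 5 min, 28.4 and 31.4 at 10 min, 141 and 136 at 15 min, 267 and 272 at 20 min, 552 and 619 at 30 min, and 723 and 898 at 45 min. The 2 courses without glucose stayed close to each other, and from 10 min on every one of their libraries lay above all libraries with glucose. The log2 difference between conditions was 0.13 ± 0.41 (SE) at 5 min (edgeR adjusted p = 0.878), 3.65 ± 0.34 at 10 min (3.71e-10) and 8.34 at 45 min (1.43e-18). Between 5 and 10 min YNL194C thus passed from a level not told apart from that with glucose to one 12.5-fold above it.

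FMP45, a paralog of SUR7 that is needed in sporulating cells, rose by less than YNL194C and less evenly between the courses. With glucose its 14 libraries lay between 11.9 and 30.6 normalised CPM. Without glucose the 2 courses read 22.7 and 18.3 at 0 min, 24.5 and 23.6 at 5 min, 34.5 and 37.0 at 10 min, 63.5 and 62.4 at 15 min, 147 and 192 at 20 min, 460 and 232 at 30 min, and 877 and 354 at 45 min. The libraries without glucose lay above all those with it from 10 min on, but the 2 courses were about equal up to 15 min and far apart at 45 min. The log2 difference was 1.08 ± 0.38 at 10 min (edgeR adjusted p = 0.0278), 3.77 ± 0.34 at 30 min (6.52e-09) and 4.33 ± 0.33 at 45 min (5.11e-10). The fit shares its spread over all groups of the chase, so the SE does not reflect the gap between the courses at 45 min. Leaving out 1 course gave 3.51 to 4.82 at that time. At 10 min FMP45 passed the threshold only with both courses with glucose, since leaving out either gave 1.17 and 0.99 with adjusted p of 0.11 and 0.18.

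PUN1, a plasma membrane protein known to rise in nitrogen starvation, was among the first of the 8 to differ. The 2 courses without glucose read 139 and 146 normalised CPM at 0 min, 227 and 186 at 5 min, 252 and 289 at 10 min, 351 and 354 at 20 min, 366 and 380 at 30 min, and 465 and 401 at 45 min. With glucose its 14 libraries lay between 82.4 and 156, and from 5 min on the conditions did not overlap. The log2 difference was 0.97 ± 0.15 at 5 min (edgeR adjusted p = 7.54e-05), 1.52 ± 0.15 at 10 min and 1.54 ± 0.15 at 45 min, and most of it was in place by 10 min. The antisense neighbour of PUN1, INA1, read 345 normalised CPM with and 119 without glucose at 30 min (mean of 2 libraries each), and its log2 difference of -1.53 (edgeR adjusted p = 2.54e-05) had the opposite sign.

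SUR7, the founding member of the family and a fixed resident of the membrane patches, went the other way. Its libraries without glucose read 450 and 393 normalised CPM at 0 min, 357 and 332 at 5 min, 339 and 305 at 10 min, 288 and 317 at 15 min, 305 and 407 at 20 min, 291 and 268 at 30 min, and 233 and 182 at 45 min. With glucose the 14 libraries lay between 333 and 465. Conditions overlapped at 20 min and did not at 15, 30 and 45 min, and at the last 2 times SUR7 was lower without glucose by a log2 difference of -0.57 ± 0.15 (edgeR adjusted p = 0.00174) and -0.98 ± 0.15 (3.00e-06). At 15 min it was -0.38 (edgeR adjusted p = 0.0350) and at 20 min -0.19 (0.283). Scaling by library totals, under which the median of all genes stood at 0.23 to 0.37 from 15 min on, gave -0.27 at 30 min with an adjusted p of 0.12, and leaving out the first course with glucose gave -0.41 (0.096); the call at 45 min held under every alternative run.

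The coat genes rose, LSP1 by more than its paralog PIL1. LSP1 without glucose read 304 and 270 normalised CPM at 0 min, 413 and 345 at 5 min, 577 and 524 at 10 min, 838 and 804 at 15 min, 1042 and 999 at 20 min, 1528 and 1712 at 30 min, and 2079 and 2006 at 45 min. With glucose its 14 libraries lay between 180 and 296, and from 5 min on the conditions did not overlap. Its log2 difference was 0.84 at 5 min (edgeR adjusted p = 0.000151), 1.47 at 10 min, 2.42 at 20 min and 2.91 ± 0.13 at 45 min (3.11e-15). On this scale, relative to other mRNAs, it was still growing at the last interval. The antisense neighbour AEP3 was at 17.3 and 25.1 normalised CPM at 30 min with and without glucose, far under the 1620 of LSP1 without it.

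PIL1, the main organiser of the coat, moved later and by less. Without glucose it read 2152 and 1994 normalised CPM at 0 min, 2042 and 2199 at 10 min, 2153 and 2136 at 15 min, 2671 and 3472 at 20 min, 4015 and 2734 at 30 min, and 4654 and 4476 at 45 min. With glucose the 14 libraries lay between 1222 and 2104, and the conditions did not overlap from 15 min on. The log2 difference was 0.64 ± 0.18 at 15 min (edgeR adjusted p = 0.00383) and 1.22 ± 0.18 at 45 min (1.33e-06). With spike-in reads as library sizes the differences of PIL1 at 15, 30 and 45 min were 0.24, 0.47 and 0.52, with adjusted p of 0.45, 0.10 and 0.065, and these sizes moved the median of all genes to -0.37, -0.42 and -0.64.

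NCE102, the sphingolipid-responsive membrane protein, rose and its paralog FHN1 did not. NCE102 without glucose read 1440 and 1105 normalised CPM at 0 min, 1827 in both courses at 10 min, 2861 and 2792 at 20 min, 4296 and 4423 at 30 min, and 4910 and 5239 at 45 min, against 816 to 1328 over the 14 libraries with glucose. From 5 min on the conditions did not overlap, and the log2 difference was 0.49 at 5 min (edgeR adjusted p = 0.0211) and 2.02 ± 0.14 at 45 min (4.59e-12). The call of NCE102 at 5 min was lost on leaving out any of 3 of the 4 courses, with log2 differences of 0.38 to 0.62, and with spike-in sizes. Its antisense neighbour SUE1 rose as well, by 5.51 on the log2 scale at 30 min, from 16.1 to 722 normalised CPM, while NCE102 went from 1147 to 4360.
FHN1 had between 51 and 232 reads in a chase library. It lay between 11.1 and 22.4 normalised CPM without glucose and between 15 and 24.3 with it, and the ranges overlapped. Its log2 difference was 0.10 ± 0.24 at 45 min (edgeR adjusted p = 0.716), and at 20 min it was -0.72 ± 0.27 (0.0215), a call that library totals and leaving out the first course of either condition ended. Spike-in sizes gave FHN1 -0.70 at 30 min and -0.67 at 45 min, and its antisense neighbour PHB1 rose by 1.18 at 30 min.

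Counted over the 8 genes, the order of the changes was as follows. At 0 min none of the 8 passed the test, against 0.109% of all genes called higher and 0.398% lower (edgeR adjusted p under 0.05). Before adjustment, the smallest p among the 8 belonged to LSP1, whose adjusted p was 0.474. At 5 min PUN1, LSP1 and NCE102 were higher, 3 of 8 against a background of 8.14%, and none was lower, against 5.45%. By 10 min YNL194C and FMP45 had joined them, 5 of 8 against 22.3% with none lower against 18.2%, and at 15, 20 and 30 min PIL1 made 6 of 8 against 30.9%, 34.1% and 38.3%. One gene of the 8 was lower at each of 15, 20, 30 and 45 min, SUR7 in all but the 20 min comparison, where it was FHN1, against 26%, 29.6%, 34.7% and 36.9% of all genes.

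Per spike-in read, a scale that does not depend on the other yeast mRNAs, the 8 genes ranked at 45 min as they did by log2 difference. Reads of all genes per spike-in read fell in the courses without glucose to 0.510 and 0.469 of their own 0 min value at 45 min, and read 1.27 and 0.737 in those with glucose. SUR7 fell to 0.266 and 0.210 without glucose, below all genes together, and read 1.12 and 0.678 with it. YNL194C stood at 204 and 205 times its 0 min value, from 9 and 16 reads at 0 min. FMP45 stood at 19.9 and 8.78 times, LSP1 at 3.53 and 3.38, and NCE102 at 1.76 and 2.15. PIL1 read 1.11 and 1.02 and FHN1 0.555 and 0.517. By 45 min PIL1 without glucose had thus risen relative to other mRNAs but stood near its 0 min value per spike-in read. At 20 min both courses of PIL1 without glucose, the lower at 0.993, lay above both with it (0.750 and 0.520). At 30 and 45 min the conditions overlapped for PIL1. PUN1 without glucose was highest at 20 min with 2.02 and 2.09 and read 1.72 and 1.25 at 45 min. All genes together also fell after 20 min, from 0.738 and 0.793 to 0.561 and 0.687 at 30 min. In normalised CPM the mean of PUN1 rose on, from 353 at 20 min to 373 at 30 min and 433 at 45 min. From 30 to 45 min without glucose, LSP1 per spike-in read rose from 3.03 to 3.53 in course 1. In course 2 it fell from 4.35 to 3.38. NCE102 per spike-in read fell in both courses over that interval, from 1.80 to 1.76 and from 2.74 to 2.15.

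In total RNA of the other strain, KWY11376, 5 of the 8 genes were higher after 30 min without glucose and none was lower. Among the 5540 genes tested there, 29.4% were higher and 29.3% lower (edgeR adjusted p under 0.05), and the median log2 change was 1.36 over the 8 genes and -0.02 over all. The genes that rose were YNL194C, PUN1, FMP45, NCE102 and LSP1, the same 5 that had passed the test at 10 min of the chase. At 30 min of the chase, the matching time, PIL1 had also passed as higher (log2 difference 0.95) and SUR7 as lower (-0.57). YNL194C read 2.30 and 2.94 normalised CPM with glucose and 372 and 417 without, and FMP45 18.7 and 23.6 against 180 and 183. PUN1 read 39.1 and 38.9 with glucose and 691 and 743 without, a log2 change of 4.20 ± 0.19 (edgeR adjusted p = 3.03e-10) or 18.4-fold. All 3 were apart from their controls by far more than the spread between libraries.
LSP1 read 453 and 644 with glucose and 1181 and 1272 without, a log2 change of 1.16 ± 0.21 (edgeR adjusted p = 0.000267). NCE102 read 323 and 639.5 with glucose, its least even pair, and 1477 and 1340 without, a log2 change of 1.55 ± 0.27 (0.000147). The other 3 genes had no change past the test. SUR7 read 118 and 161 against 113 and 105 (log2 change -0.36 ± 0.22, edgeR adjusted p = 0.181), PIL1 1108 and 1323 against 1058 and 1008 (-0.23 ± 0.19, 0.305) and FHN1 17.6 and 23.1 against 21.9 and 14.8 (-0.15 ± 0.27, 0.653), and only in FHN1 did the groups overlap. With library totals, which moved the median of all genes to -0.45, SUR7 at -0.77 and PIL1 at -0.65 also passed the test as lower. Of the antisense neighbours, SUE1 (of NCE102) changed by 3.98 in total RNA, INA1 (of PUN1) by -1.01, AEP3 (of LSP1) by -0.67 and PHB1 (of FHN1) by -0.27.

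**Figure D2:**
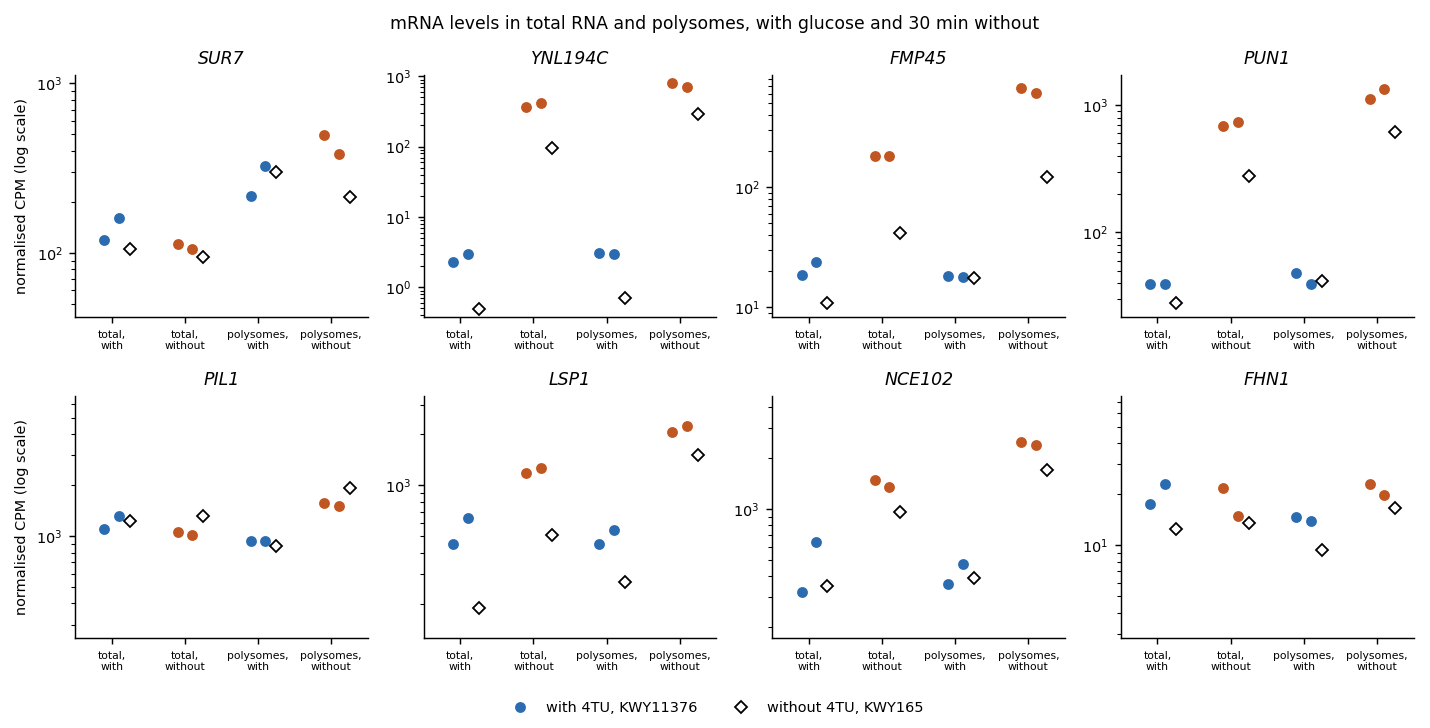
Normalised CPM (log axis) of the 8 genes in total RNA and polysomes with glucose and 30 min without it; filled points are the 2 libraries per group with 4TU (KWY11376, blue with and orange without glucose), open diamonds the single libraries without 4TU (KWY165). In total RNA YNL194C, FMP45, PUN1, LSP1 and NCE102 lie higher without glucose, and SUR7 lies between 105 and 161 in the 4 total RNA libraries with 4TU and between 218 and 498 in the 4 polysome libraries.

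The single libraries without 4TU, from the chase strain, gave the same signs for the genes that rose. Total RNA of YNL194C read 0.491 with and 94.4 without glucose, from 14 and 2154 reads, and the log2 changes were 7.59 for YNL194C, 3.32 for PUN1, 1.94 for FMP45, 1.45 for NCE102 and 1.43 for LSP1. SUR7 changed by -0.15, and PIL1 and FHN1 by 0.10 each. With 1 library per group these changes have no replicate check.

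PUN1, LSP1 and PIL1 changed by different amounts in the 2 replicated experiments, in a comparison chosen after seeing the data. In 1 edgeR fit of the chase at 30 min and the 4TU total RNA, which share no library, the log2 change of PUN1 was 2.64 ± 0.23 smaller in the chase (a difference of -2.64, edgeR adjusted p = 9.95e-07). Those of LSP1 and PIL1 were larger in the chase by 1.47 ± 0.29 (0.000830) and 1.19 ± 0.29 (0.00416). Among all 5533 genes tested, 24.1% differed in the direction of LSP1 and PIL1 and 19.3% in that of PUN1, and the other 5 of the 8 genes did not pass. The chase and the 4TU set differ in strain, in labelling and in the run of the experiment, and these cannot be told apart. In the unlabelled KWY165 libraries, with 1 library per group, PUN1 changed by 3.32, between the 1.55 of the chase and the 4.20 of the 4TU set. LSP1 changed there by 1.43, against 2.63 in the chase and 1.16 in the 4TU set. PIL1 changed there by 0.10, against 0.95 in the chase and -0.23 in the 4TU set.

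Whether family members moved apart within the same libraries was tested on 6 ratios of reads of 2 genes in total RNA, from 5 libraries with and 5 without glucose in the 3 sets at 30 min. The size of a library cancels in such a ratio. The ratio of YNL194C to SUR7 was 0.00529 and 0.00753 in the chase with glucose and 1.90 and 2.31 without, 0.0196 and 0.0183 against 3.29 and 3.97 in the 4TU set, and 0.00485 against 0.998 without 4TU. No library with glucose came near any without.
The ratio of FMP45 to SUR7 was 0.0620 and 0.0587 with glucose in the chase and 1.58 and 0.866 without, 0.158 and 0.147 against 1.59 and 1.74 in the 4TU set, and 0.103 against 0.437 without 4TU. The mean log2 change of the ratio, each set weighted equally, was 7.88 for YNL194C to SUR7, 3.27 for FMP45 to SUR7, 3.37 for PUN1 to SUR7 and 4.61 for YNL194C to FMP45. YNL194C therefore differed from FMP45 and not only from SUR7, while PUN1 was not tested against YNL194C or FMP45.
In the other families the paralogs also moved apart. The ratio of PIL1 to LSP1 fell in each set, from 7.76 and 5.83 to 2.63 and 1.60 in the chase, from 2.45 and 2.05 to 0.896 and 0.793 in the 4TU set and from 6.51 to 2.59 without 4TU. Its mean log2 change was -1.49, and that of FHN1 to NCE102 was -1.77. Each of the 6 ratios had a two-sided exact permutation p of 0.0278 over 72 permutations within sets, the smallest this design allows, and 0.0278 after adjustment over the 6. The pairs were chosen with earlier results of these data known. How many other pairs of genes reach this smallest p was not tested, so the p does not set these 6 apart.

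**Figure D3:**
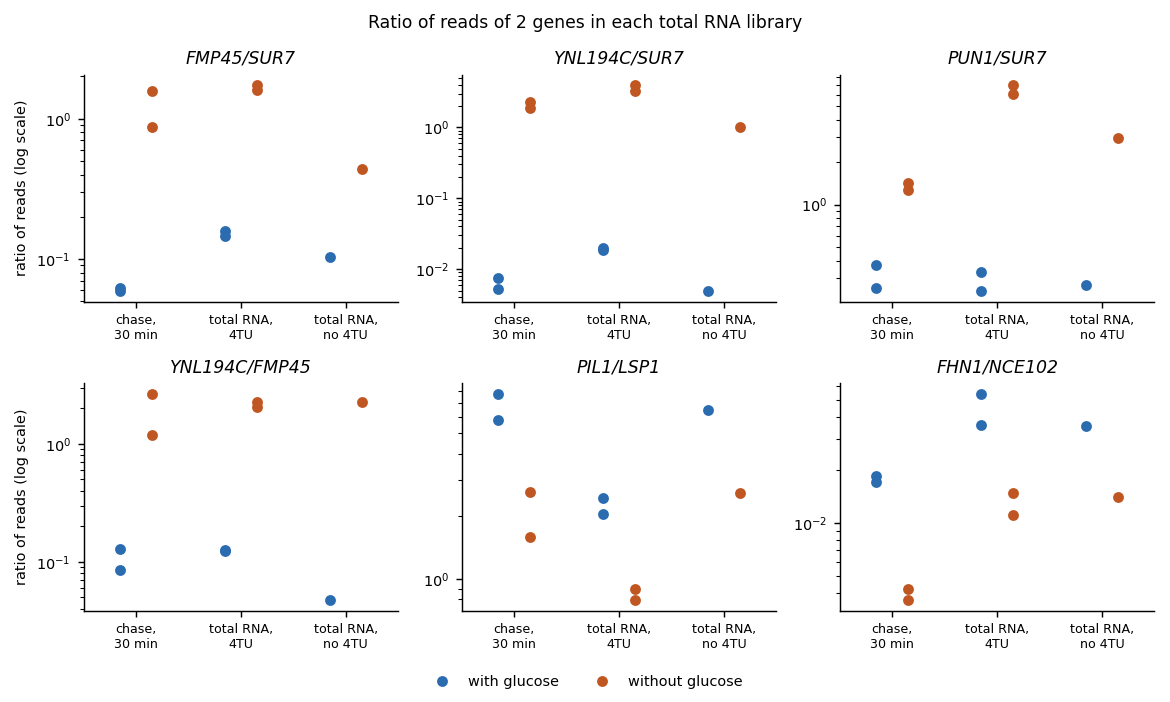
Ratio of reads of 2 genes (log axis) in each total RNA library at 30 min, in the chase, the 4TU set and the set without 4TU, with glucose (blue) and without (orange); each point is 1 library. In every panel and set the libraries without glucose lie on 1 side of those with it: the ratio of PIL1 to LSP1 lies at 2.05 and 2.45 with glucose and 0.793 and 0.896 without in the 4TU set.

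On polysomes, SUR7 alone of the 8 genes was called with glucose and 7 of the 8 were without it. Polysome association is the log2 ratio of the level in polysomes to that in total RNA within the 4TU set. With glucose it passed the test as higher than 0 for 1 of the 8 genes, SUR7, at 0.96 ± 0.22 (edgeR adjusted p = 0.00523), against 15.3% of all genes. No member passed as lower, against 13.6%. The other 7 lay between -0.52 (FHN1) and 0.20 (YNL194C). SUR7 read 118 and 161 normalised CPM in total RNA and 218 and 326 in polysomes, and its call was lost with library totals (0.44) and on leaving out the first total RNA library (0.75) or the second polysome library (0.64).

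After 30 min without glucose 7 of the 8 genes passed as higher in polysomes than in total RNA and none as lower, against 25.7% and 24.4% of all genes. SUR7 read 113 and 105 in total RNA and 498 and 385 in polysomes, an association of 2.02 ± 0.22 (edgeR adjusted p = 6.26e-06). FMP45 read 180 and 183 against 665 and 603, an association of 1.80 ± 0.18 (2.24e-06). In both genes the 2 fractions were far apart in every library.
YNL194C read 372 and 417 in total RNA and 815 and 715 in polysomes, PUN1 691 and 743 against 1122 and 1341, and LSP1 1181 and 1272 against 2078 and 2256. Their associations were 0.96, 0.78 and 0.82. NCE102 was at 0.80 and PIL1 at 0.57, each with an edgeR adjusted p of about the same size (0.0207 and 0.0211), and FHN1 was at 0.22 (0.526). These values depend on the scaling: library totals, under which the median gene stood at -0.73, gave 0.21 for YNL194C, 0.08 for LSP1, 0.05 for PUN1 and for NCE102, -0.17 for PIL1 and -0.53 for FHN1, and of the 7 calls only those of SUR7 and FMP45 were kept. On leaving out single libraries the calls of PIL1, NCE102, PUN1 and LSP1 were also lost, each with at least the first total RNA library without glucose. Of the antisense neighbours, SUE1 had an association of 1.65 without glucose, AEP3 of 0.48, INA1 of -0.49 and PHB1 of -0.58.

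**Figure D4:**
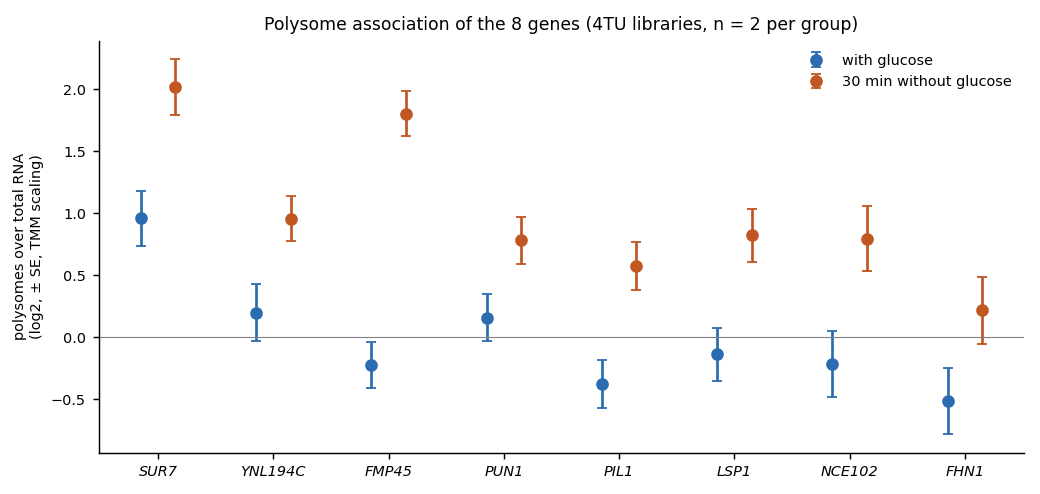
Log2 ratio of polysomes to total RNA for the 8 genes in the 4TU set with glucose (blue) and 30 min without (orange), as the fitted value ± SE from 2 libraries per group. Every gene lies higher without than with glucose, from 0.62 higher for PUN1 to 2.03 for FMP45, with SUR7 highest in both conditions.

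The change of polysome association between the conditions was above 0 for all 8 genes and passed the test for 4, FMP45, SUR7, LSP1 and PIL1, against 8.16% of all genes called higher and 8.01% lower (224 genes and 516 with library totals). FMP45 changed by 2.03 ± 0.26 (edgeR adjusted p = 0.000222), from -0.23 with to 1.80 without glucose. SUR7 changed by 1.06 ± 0.32 (0.0322), LSP1 by 0.96 ± 0.30 (0.0424) and PIL1 by 0.95 ± 0.27 (0.0256). NCE102 at 1.01 (0.0784), YNL194C at 0.76 (0.0901), FHN1 at 0.73 (0.200) and PUN1 at 0.62 (0.127) did not pass. The median was 0.95 over the 8 genes and 0.01 over all genes. The association of the antisense neighbours changed by 1.25 for SUE1, 0.32 for AEP3, 0.17 for INA1 and -0.27 for PHB1.
FMP45 kept its call under every alternative run, whereas SUR7, LSP1 and PIL1 lost theirs with library totals (0.83, 0.73 and 0.71) and on leaving out several single libraries, at 0.79 to 1.11, 0.68 to 1.02 and 0.82 to 0.99 in those, and SUR7 and LSP1 also with unlabelled reads only (0.85 and 0.61). In the single libraries of KWY165 without 4TU the same quantity was 0.58 to 1.11 for 7 genes but -0.36 for SUR7, whose association went from 1.52 to 1.17 there. FMP45 did not stand out in that set. It changed by 0.86, from 0.70 to 1.56, less than YNL194C at 1.11, LSP1 at 1.06 and PIL1 at 1.05. In that set SUR7 read 302 normalised CPM in polysomes with glucose and 212 without, the reverse of the 4TU set, with no replicates to judge it.

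SUR7, PIL1 and FHN1 had no change past the test in total RNA of the 4TU set. Their polysome levels there were 218 and 326 normalised CPM with against 498 and 385 without glucose for SUR7, 939.5 and 930.5 against 1575 and 1499 for PIL1, and 14.6 and 13.9 against 23.1 and 19.7 for FHN1. The levels of these 3 genes did not overlap between the conditions, and the difference between the polysome groups was not tested.

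Labelled shares in the 4TU set were lower without glucose in all 8 genes. The labels do not say when 4TU was given relative to the withdrawal, so the shares are set side by side and not as an effect of glucose on labelling. In total RNA of the 4TU set, SUR7 was labelled in 59.2% and 62.8% of reads with glucose and 2.44% and 2.42% without, PIL1 in 43.8% and 56.4% against 1.45% and 1.22%, and LSP1 in 67.3% and 72.8% against 1.43% and 1.63%. Without 4TU the share ran from 0 to 0.163% over the 8 genes in the 4 libraries. Where it was 0, as for SUR7 in polysomes with glucose, 0 of 3424 reads allow a share of up to 0.0876%. Intervals and limits of shares cover counting error only.
Log2 labelled odds, the ratio of labelled to unlabelled reads, were lower without glucose for all 8 genes, against 99.6% of the 5381 genes tested. The changes ran from -7.24 (LSP1) to -3.99 ± 0.37 (YNL194C), beside a median of -6.49 over all genes. YNL194C was labelled in 20.5% and 37.4% of its 78 and 123 reads with glucose, with 95% Wilson intervals of 13% to 30.8% and 29.4% to 46.2%, and in 2.62% of its reads in both libraries without.

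In polysomes with glucose the labelled odds were below those of total RNA for 5 of the 8 genes, against 34.4% of all genes. FMP45 was labelled in 46.9% and 56.7% of reads in total RNA and 28.5% and 19.9% in polysomes, a log2 difference of -1.76 ± 0.34 (edgeR adjusted p = 9.27e-05). LSP1 stood at -1.32 ± 0.24 (5.49e-05) and SUR7 at -1.30 ± 0.28 (0.000415), followed by NCE102 at -0.77 (0.0139) and PUN1 at -0.73 (0.0317). PIL1 was labelled in 45.5% and 47.8% of its polysome reads, a log2 difference of -0.20 ± 0.24 from total RNA (0.473). The median over all genes was -1.02, and the calls of SUR7, NCE102 and PUN1 were lost on leaving out single libraries (-1.06, -0.46 and -0.47 where the difference was smallest). Without glucose none of the 8 passed, with log2 differences from -1.06 (SUR7, edgeR adjusted p = 0.116) to 0.36 (FHN1), against 0.725% of all genes called higher and 0.186% lower.

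In the chase the labelled share fell with time in both conditions, more slowly without glucose in 7 of the 8 genes. SUR7 was labelled in 60.2% and 59.5% of reads at 0 min with glucose and 9.07% and 7.84% at 45 min, and without glucose in 64.6% and 63.4% at 0 min and 26.8% and 32.6% at 45 min. Its log2 labelled odds fell by 0.85 ± 0.03 per 10 min with glucose and by 0.49 ± 0.03 without, a difference of slopes of 0.36 ± 0.04 (edgeR adjusted p = 8.59e-12). PUN1 had a difference of slopes of 0.46, NCE102 of 0.42, LSP1 and SUR7 of 0.36, PIL1 of 0.31, FHN1 of 0.30 and FMP45 of 0.22 ± 0.07. These 7 of the 8 genes passed as slower, against 93.2% of the 5224 genes tested, whose median difference was 0.39, and none as faster, against 0.0383%.
The slopes fell with glucose for 7 of the 8, against 99.8% of all genes, and without glucose for all 8, against 91.8%. FMP45 lost the difference of slopes when only 0 to 30 min were used (0.05) and FHN1 on leaving out the first course with or the second without glucose (0.24 in each case). A slope of the share mixes the loss of labelled copies with the making of new ones, and the fit takes the times of a course as separate samples although they may come from 1 culture.

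Labelled reads of YNL194C were added after 0 min. Without glucose it had 3 and 6 labelled reads at 0 min, and its labelled reads per spike-in read were 14.5 and 13 times the 0 min value at 10 min, 138 and 114 times at 20 min and 169 and 150 times at 45 min. Its labelled share was 36.6% and 42.2% at 10 min, 39.4% and 36.4% at 20 min and 27.7% and 27.4% at 45 min. The labelled and unlabelled reads thus rose together, and the slopes of YNL194C do not measure the loss of mRNA present at the start. They were -0.24 ± 0.05 per 10 min without glucose and -0.24 ± 0.16 with it (edgeR adjusted p = 0.125), and their difference was 0.00 ± 0.17 (0.966).
FMP45 also gained labelled reads, on a smaller scale. Per spike-in read they stood at 9.42 and 4.38 times the 0 min value at 45 min without glucose and 0.413 and 0.189 with it. Its unlabelled reads rose further without glucose, to 32.4 and 15.2 times. Labelled reads of LSP1 without glucose stood at 1.75 and 1.78, those of NCE102 at 1.01 and 1.33, and those of PUN1 at 0.895 and 0.803 after 1.58 and 1.71 at 20 min. PIL1 had fallen to 0.533 and 0.542, FHN1 to 0.193 and 0.245 and SUR7 to 0.111 and 0.108, while all genes together were at 0.285 and 0.292. With glucose the labelled reads of SUR7 were at 0.169 and 0.0893 at 45 min, and the 2 conditions overlapped.

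**Figure D5:**
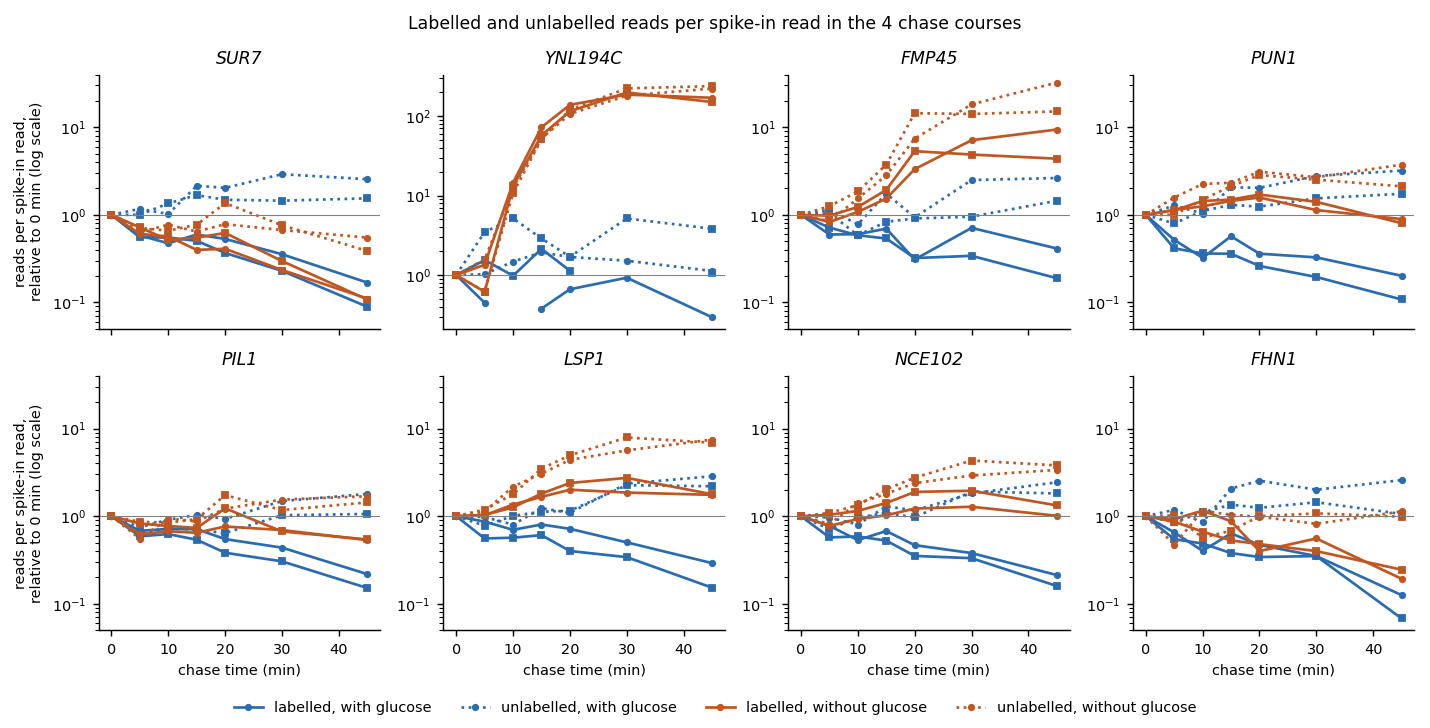
Labelled (solid) and unlabelled (dotted) reads per spike-in read, relative to 0 min of the same course (log axis), against chase time in min for the 8 genes, with 2 courses with glucose (blue) and 2 without (orange). YNL194C has its own axis, and its points with 0 labelled reads (glucose courses at 10 and 30 min) are not drawn. Labelled reads of YNL194C without glucose end at 169 and 150 times the start, those of SUR7 at 0.111 and 0.108.

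The same comparisons were made for other genes of the compartment, on 4 lists of 43 genes in all that are described by their counts and medians only. Beside them, 38.3% of all genes were higher and 34.7% lower in the chase at 30 min, and 29.4% and 29.3% in total RNA of the 4TU set. Of 10 other eisosome proteins, 9 were higher in the chase at 30 min and none lower, with a median log2 change of 1.91, and 9 were higher and 1 lower in total RNA of the 4TU set, with a median of 1.02. RFS1 and YCP4, flavodoxin-like proteins, rose by 3.01 ± 0.15 and 2.02 in the chase (edgeR adjusted p = 2.56e-14 and 7.28e-11) and by 0.89 and 1.70 in total RNA. SEG1, which helps to set up the coat, rose by 2.00 and 0.78 and MDG1 by 1.19 and 1.23. XRN1, the cytoplasmic exonuclease that is stored at eisosomes in cells short of glucose, was the gene that fell in total RNA (-1.05) and was at -0.25 in the chase (0.0673).
Of 13 kinases and TORC2 partners, 7 were higher and 1 lower in the chase at 30 min and 3 higher and 5 lower in total RNA, with medians of 0.74 and -0.42. YPK2, a kinase under TORC2, rose by 4.30 ± 0.20 and 4.55 ± 0.23, SLM1, an eisosome-linked activator of TORC2, by 1.80 and 1.0, and LST8, a subunit of both TOR complexes, by 0.76 and 2.70. Of 5 permeases, 1 was higher and 2 lower in the chase and 1 higher and 1 lower in total RNA, with medians of -0.20 and -0.05. The arginine permease CAN1 rose by 2.00 and 2.65 and the methionine permease MUP1 fell by 1.91 and 1.15. CAN1 also gained polysome association, by 2.02 ± 0.32 (edgeR adjusted p = 0.000996), 1 of 2 permeases that did.
Of 15 genes of sphingolipid synthesis and its control, 4 were higher and 7 lower in the chase and 10 higher and 1 lower in total RNA, with medians of -0.28 and 1.14. ORM2, an inhibitor of sphingolipid synthesis, rose by 2.97 and 3.39, and SUR1 and CSG2, of the enzyme that mannosylates inositol phosphorylceramide, by 3.13 and 3.48 and by 0.87 and 2.21.

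The genes whose levels ran most like each of the 8 were looked up among 5067 genes with a mean of at least 100 reads, by Pearson's r of mean log2(normalised CPM + 1) over the 22 groups of the 3 sets, which share their libraries. TMM factors were taken over all 40 libraries together here, and differences between the 3 sets enter r and the ranking. For YNL194C they were CYB2 (0.985), YMR085W (0.985) and RGI1 (0.984), and for FMP45 YNL195C (0.982), POT1 (0.979) and AQY3 (0.979). The locus YNL195C is the next one to YNL194C on chromosome XIV. LSP1 ran most like SIP5 (0.983), YSC84 (0.983) and UBI4 (0.982), PUN1 like YFT2 (0.976), YPR145C-A (0.971) and AIT1 (0.961), and NCE102 like MIC60 (0.965), COS8 (0.955) and YBL086C (0.953).
The closest genes were less close for SUR7, with GPI11 (0.924), COG8 (0.917) and VAM3 (0.889), for FHN1, with SFA1 (0.884), DRE2 (0.845) and VPS1 (0.843), and for PIL1, with SOD2 (0.882), COR1 (0.874) and YHR007C-A (0.872). Among the 8 genes themselves YNL194C and FMP45 ran most alike (0.946), and SUR7 had a negative r with each of the other 7, from -0.27 with YNL194C to -0.07 with PUN1.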

How the data were processed

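Deposited tables of 40 libraries were used; each lists features, which are 3' end windows per the file headers, with whole-number counts of reads, of reads with T-to-C conversions and of multimapped reads. The authors' conversion rate is a fraction of covered T positions, per the file headers, and was used as its whole-number conversions per covered T in an alternative; the deposited CPM values entered no test. Per the file headers, slamdunk 0.4.3 made the tables. The submitters' processing notes also list the tools featureCounts, TopHat2, Bowtie and cutadapt, with no version. RNA was alkylated and libraries were made with a QuantSeq 3' end kit, per the labels' protocols. The rule for a labelled read, the genome build and the strand setting were not found in headers or labels.

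Samples were grouped by their titles. The 8 genes, the 4 lists and the tests were chosen with earlier results of these data known; the comparison of the chase with the 4TU total RNA was added after seeing the data. Read counts were tested with edgeR 4.0.16 in R 4.3.3 (TMM factors, expression filter, robust quasi-likelihood test, Benjamini-Hochberg adjustment over all genes, threshold 0.05), with the 8 libraries with 4TU in 1 fit and the 28 chase libraries in another. SEs come from the information matrix of the fit scaled by the quasi-likelihood dispersion. The 9 spike-in features and the Citrine reporter are not among the 5560 features and entered no gene test. Labelled odds were fitted with edgeR on labelled and unlabelled counts side by side, with each library as a block, for genes with a mean of at least 50 reads and at least 10 labelled reads in sum. Ratios used log2 of reads plus 0.5, tested by exact permutation within sets (two-sided). The fits were tested on simulated data with 200 changed genes. The text names all 8 genes, the 2 genes of each list with the smallest p in total RNA and in the chase at 30 min, and the 3 genes most like each member; XRN1 and the later values of named genes were added after their values were seen.

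Depth sets the precision: a member had from 5 reads (YNL194C with glucose) to 55233 reads (PIL1) in a library. Shares of single libraries have 95% Wilson intervals, and a count of 0 allows a share of 3 counts over the reads. Same-numbered replicates deviated together in some pairs of groups and not in others. Over all genes, the correlation of their deviations ran from -0.08 to 0.37 over 6 pairs of groups in the 4TU set, highest between total RNA and polysomes with glucose, and from -0.42 to 0.51 over 91 in the chase. Since not every pair did, the main fits have no block. Alternatives were DESeq2 1.42.0, its size factors, library totals, spike-in sizes, other filters, limma 3.58.1, conversions per covered T, a replicate block and leaving out each library or course. RefSeq symbols matched 5558 feature names.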

Additional observations from a re-analysis of the deposited data

Results flagged for a closer look

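In the difference between the replicated experiments, 3 genes of the 8 stood out because the glucose effect differed between the chase of KWY165 at 30 min and the total RNA of KWY11376 by a test of the difference itself. The log2 difference, chase minus 4TU set, was -2.64 for PUN1, 1.47 for LSP1 and 1.19 for PIL1. The experiments differ in strain, labelling and run, which cannot be told apart.

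In the 4TU set, the ratio of polysomes to total RNA changed between conditions by a test of the interaction in 4 genes. The log2 change was 2.03 for FMP45, 1.06 for SUR7, 0.96 for LSP1 and 0.95 for PIL1. FMP45 read 17.9 and 18.2 normalised CPM in polysomes with glucose against 603 and 665 without, and 18.7 and 23.6 against 180 and 183 in total RNA. Its call was kept under every alternative run. Those of SUR7, LSP1 and PIL1 were lost with library totals (0.83, 0.73 and 0.71) and on leaving out several single libraries, and in the unlabelled set, with 1 library a group, SUR7 changed the other way (-0.36). FMP45 changed by 0.86 in the unlabelled set, less than LSP1 at 1.06 and PIL1 at 1.05.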

How the results depend on the processing

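Of all alternatives run for the single genes of the 8, 1471 kept direction and side of the threshold, 70 lost the call, 21 gained one and 51 changed sign. Every change of sign was of a value that had not passed the test, except that of PIL1 in polysome association without glucose, and the cause was not tested. Library totals gave polysome association of -0.34 for PUN1 and -0.30 for YNL194C with glucose and -0.17 for PIL1 and -0.53 for FHN1 without. In the chase they gave SUR7 0.069 at 5 min, 0.061 at 10 min and 0.092 at 20 min and FHN1 0.067 at 30 min, and in the chase minus total RNA FHN1 0.63 and SUR7 0.50. FMP45 at 5 min was -0.00088 with DESeq2 and -0.012 with spike-in sizes, which also gave FHN1 -0.67 at 45 min. Conversions per covered T gave labelled odds in polysomes against total RNA without glucose of -0.068 (PIL1), -2.89 (FHN1), 0.083 (YNL194C) and 0.21 (NCE102).

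Library totals gave 1052 genes higher and 2344 lower in total RNA, 239 higher and 2051 lower in polysome association with glucose, 429 and 2775 without, and 224 and 516 in its change. In the chase they gave 642 higher and 166 lower at 5 min, 1726 and 575 at 10 min, 2227 and 989 at 15 min, 2482 and 1111 at 20 min, 2622 and 1409 at 30 min and 2680 and 1631 at 45 min, and in the chase minus total RNA 2844 higher and 381 lower. Spike-in sizes gave 193 higher and 50 lower at 5 min, 699 and 591 at 10 min, and 799, 1186 and 1086 higher with 2025, 2446 and 2831 lower at 15, 30 and 45 min. DESeq2 called 14 genes higher and 34 lower at 0 min, and unlabelled reads only gave 275 higher in the change of polysome association. For labelled odds with glucose, a mean of 10 reads gave 1 gene higher and conversions 893 lower. With 0 to 30 min, 1 gene had a faster slope and 13 had a rising slope without glucose (1 with limma).

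The replicate numbers were not taken as pairs, since same-numbered replicates did not deviate together in every pair of groups. With the replicate block FMP45 at 5 min was -0.0092, and 1 gene was higher in labelled odds with glucose and 17 were lower without. The set without 4TU has 1 library per group and thus no pairs, so it was left out of the paired ratios. Without that set the ratio of FMP45 to SUR7 changed by 3.86 and that of YNL194C to FMP45 by 4.11. Pairing itself does not alter the mean change of a ratio, so these values reflect the sets used.

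Leaving out 1 library or course gave ranges as follows. Genes called in the change of polysome association numbered 179 to 493 higher and 178 to 487 lower, and in polysome association with glucose 477 to 909 and 373 to 869. In the chase they numbered 3 to 7 higher and 9 to 17 lower at 0 min, 152 to 498 and 49 to 458 at 5 min, and 578 to 954 lower at 10 min. Slopes gave 0 to 4 faster and 1 to 10 rising without glucose. Labelled odds in polysomes against total RNA gave 0 to 3 higher and 438 to 2978 lower with glucose and 16 to 204 and 2 to 94 without. The log2 change of a ratio ran from -1.99 to -1.67 (FHN1 to NCE102), 3.13 to 3.86 (FMP45 to SUR7), -1.61 to -1.37 (PIL1 to LSP1), 3.28 to 3.46 (PUN1 to SUR7), 4.11 to 4.80 (YNL194C to FMP45) and 7.79 to 7.97 (YNL194C to SUR7); without either unlabelled library the smallest exact permutation p rose to 0.0556.

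Single genes changed sign in some of these sets. In the chase at 0 min FMP45 ran from -0.21 to 0.093 and YNL194C from -0.23 to 1.17. At 5 min FHN1 ran from -0.49 to 0.16, FMP45 from -0.25 to 0.31, SUR7 from -0.072 to 0.029 and YNL194C from -0.63 to 0.62, and at 45 min FHN1 from -0.25 to 0.33. The difference of slopes of YNL194C ran from -0.011 to 0.031. In the chase minus total RNA FHN1 ran from -0.38 to 0.17 and NCE102 from -0.26 to 0.79, and in total RNA FHN1 from -0.46 to 0.10. Polysome association with glucose ran from -0.37 to 0.14 (LSP1), -0.62 to 0.36 (NCE102) and -0.012 to 0.29 (PUN1), and without from -0.035 to 0.53 (FHN1). Labelled odds in polysomes against total RNA ran with glucose from -0.56 to 0.16 (PIL1) and -1.0 to 0.20 (YNL194C), and without from -6.28 to 1.69 (FHN1), -0.62 to 0.13 (LSP1), -0.25 to 0.031 (NCE102), -0.044 to 0.42 (PIL1) and -0.53 to 0.020 (YNL194C). Depth limits FHN1 and YNL194C with glucose, which had as few as 51 and 5 reads in a library.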
